A study of Sus scrofa with 11 samples.

Results

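Transcripts of 10 scavenger and lectin receptors best known from macrophages were followed in full-thickness skin wounds of minipigs. The receptors, CD209, MRC1, CLEC7A, MARCO, MSR1, COLEC12, CD163, STAB1, SCARB1 and OLR1, were taken by gene symbol from a table of 30376 genes. The 10 symbols were each found in the table, and 10 of 10 passed the filter on low values described below, among 13956 genes that did. The diabetic group was 7 wounds of a female Yucatan minipig, 6 months old when streptozotocin, which destroys the insulin-producing beta cells, was infused intravenously, and whose supplemental insulin was stopped a week before wounding. The non-diabetic group was 4 wounds of a second female Yucatan minipig, which received identical punch wounds and whose age is not given in the sources used here. All wounds were collected on day 10 and polyadenylated RNA of each was sequenced as a separate directional library. Because each group was a single animal, p-values measure the spread between wounds of 1 animal, and an effect of diabetes cannot be told apart from any other difference between the 2 animals.

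Macrophages in a healing wound clear microbes, dead cells, haemoglobin and modified lipoproteins through 2 broad classes of surface receptor. Scavenger receptors bind polyanionic or oxidised ligands, and C-type lectin receptors bind sugars on microbes or on damaged self. Several of these receptors are also carried by other cells, since STAB1, COLEC12 and OLR1 are known from endothelium, CLEC7A from dendritic cells and neutrophils, and SCARB1 from many tissues.

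Values are FPKM, the reads on a gene divided by its length and by a size for each library, so levels could be compared between genes. The size recovered from the values was 0.854 to 1.18 times the library's reads on genes. Reads on genes numbered 28314785 to 40168372 per library. Diabetic replicate 4 and non-diabetic replicate 1 stood apart from the other 9 wounds on the first principal component, which held 44.53% of the variance. Their summed keratinocyte markers were 42.2 and 252 FPKM, against 1350 to 6275 FPKM in the other 9 wounds, and their summed neutrophil markers were 46.2 and 301 FPKM, against 3813 to 12591 FPKM. Results on the receptors are therefore given with and without these 2 wounds. In bulk tissue, fewer cells of a type and less RNA per cell cannot be told apart.

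Diabetic wounds held more transcript of 4 of the 10 receptors, CD209, MARCO, MRC1 and SCARB1, and none lower. A receptor was called where limma on log2(FPKM + 0.5) gave a log2 difference of more than 0.5 in size with p below 0.05 after adjustment over all 13956 genes. By the same rule 1.35% of all genes tested were higher in diabetic wounds and 1.66% were lower. With the unadjusted limma p under 0.05 in place of the adjusted one and the same size, 5 receptors were higher and 1, OLR1, lower, against 3.48% and 3.65% of all genes tested. The 7 diabetic wounds lay wholly above the 4 non-diabetic wounds for CD209, MARCO, MRC1 and SCARB1, and wholly below them for OLR1. Over all genes tested, 2.69% were separated in this way with diabetic wounds higher and 2.96% with diabetic wounds lower. The median log2 difference was 0.54 over the 10 receptors and 0.014 over all genes tested.

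**Figure D1:**
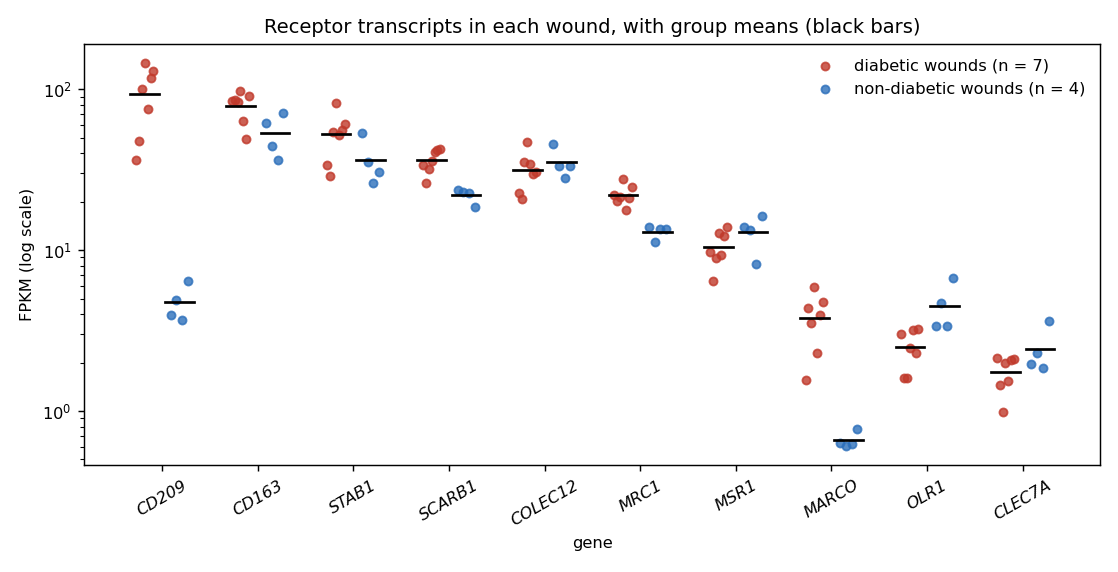
FPKM of each receptor (log axis) in the 7 diabetic wounds (red) and the 4 non-diabetic wounds (blue), with black bars at group means. CD209 ran from 36.5 to 145 FPKM in diabetic wounds and from 3.70 to 6.45 FPKM in non-diabetic wounds, while the groups overlapped for CD163, STAB1, COLEC12, MSR1 and CLEC7A.

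Among the C-type lectin receptors, CD209 differed by far the most. CD209, or DC-SIGN, binds mannose- and fucose-bearing glycans on microbes and on adhesion molecules. Its level in diabetic replicates 1 to 7 was 36.5, 47.8, 100.9, 145, 75.8, 117 and 129 FPKM, and in non-diabetic replicates 1 to 4 it was 3.94, 4.92, 3.70 and 6.45 FPKM. The lowest diabetic wound thus stood clear of the highest non-diabetic one, although the diabetic wounds themselves were widely spread. The mean was 93.2 ± 41.2 FPKM (SD, n = 7) against 4.75 ± 1.25 FPKM (SD, n = 4), a ratio of 19.6. The log2 difference was 4.04 ± 0.36 (SE, adjusted p = 0.000169 in limma), and an exact, two-sided permutation test that took all 330 splits of the wounds gave p = 0.00303, the smallest it allows. These values rested on 1074 to 3795 reads per diabetic wound and 93 to 207 reads per non-diabetic wound. Without the 2 wounds that stood apart the log2 difference was 3.83 ± 0.39 (SE, adjusted p = 0.00183).

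MRC1 is the mannose receptor, CD206, an endocytic lectin often used as a mark of alternatively activated macrophages. Diabetic wounds ranged from 17.6 to 27.5 FPKM with a median of 21.5 FPKM, and non-diabetic replicates 1 to 4 held 13.8, 11.3, 13.4 and 13.5 FPKM. The groups did not overlap, and MRC1 varied least among the diabetic wounds of the 10 receptors, with a coefficient of variation of 14.5%. By protein staining, the authors of the data reported a marked decrease of CD206-positive macrophages in diabetic wounds, the opposite direction. The stained sections were not used here, and the reason for the difference between transcript and staining was not tested. The log2 difference was 0.73 ± 0.12 (SE, adjusted p = 0.00585 in limma; exact permutation p = 0.00303), and 0.71 ± 0.12 (SE, adjusted p = 0.0175) without the 2 wounds that stood apart.

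CLEC7A is dectin-1, the receptor for fungal beta-glucan. It was the least abundant receptor in diabetic wounds, at 0.986 to 2.15 FPKM with a median of 1.99 FPKM, and non-diabetic replicates 1 to 4 held 1.95, 2.29, 1.86 and 3.61 FPKM. The groups overlapped and the difference did not pass the test, with a log2 difference of -0.37 ± 0.20 (SE, adjusted p = 0.354), or -0.47 (adjusted p = 0.365) without the 2 wounds that stood apart.

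Of the 3 collagen-stemmed class A scavenger receptors among the 10, MARCO, MSR1 and COLEC12, MARCO was called. MARCO binds bacteria and inhaled particles and is typical of resident macrophages of lung, spleen and lymph node. Diabetic wounds ranged from 1.56 to 5.93 FPKM with a median of 3.93 FPKM, and non-diabetic replicates 1 to 4 held 0.628, 0.606, 0.627 and 0.775 FPKM. The level was low in both groups, at 87 to 302 reads per diabetic wound and 28 to 47 reads per non-diabetic wound, yet the groups did not overlap. The mean was 3.77 ± 1.48 FPKM (SD, n = 7) against 0.659 ± 0.0779 FPKM (SD, n = 4), a ratio of 5.71. The log2 difference was 1.80 ± 0.27 (SE, adjusted p = 0.00419 in limma; exact permutation p = 0.00303). At these levels the pseudocount of 0.5 shrinks the difference, which was 2.24 with a pseudocount of 0.1. Without the 2 wounds that stood apart it was 1.67 ± 0.28 (SE, adjusted p = 0.0177).

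MSR1, the class A receptor for modified lipoproteins and bacterial surface polymers, ranged from 6.44 to 13.8 FPKM in diabetic wounds with a median of 9.70 FPKM. Non-diabetic replicates 1 to 4 held 13.9, 13.4, 8.19 and 16.3 FPKM, so the groups overlapped. Its log2 difference was -0.29 ± 0.22 (SE, adjusted p = 0.532), and -0.29 (adjusted p = 0.616) without the 2 wounds that stood apart. COLEC12, a collectin with a scavenger receptor stem, ranged from 20.8 to 46.9 FPKM in diabetic wounds with a median of 30.6 FPKM. Non-diabetic replicates 1 to 4 held 45.7, 33.1, 28.2 and 33.5 FPKM. The highest wound of each group was one of the 2 that stood apart, and the log2 difference was -0.18 ± 0.21 (SE, adjusted p = 0.701), or -0.15 (adjusted p = 0.728) without both. An unnamed long non-coding RNA overlaps COLEC12 on the opposite strand, at 0.562 and 0.863 FPKM.

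Neither of the large multidomain clearance receptors passed the test. CD163 takes up haptoglobin-haemoglobin complexes. It was the most abundant of the 10 in non-diabetic wounds, where replicates 1 to 4 held 61.5, 44.2, 36.4 and 71.6 FPKM, and diabetic wounds ranged from 49.3 to 97.6 FPKM with a median of 84.0 FPKM. The groups overlapped, and the log2 difference was 0.58 ± 0.22 (SE, adjusted p = 0.179 in limma; exact permutation p = 0.0394). Without the 2 wounds that stood apart it was 0.61 (adjusted p = 0.267). STAB1, or stabilin-1, clears modified lipoproteins and matrix fragments. It ranged from 29.0 to 82.4 FPKM in diabetic wounds with a median of 53.8 FPKM, and non-diabetic replicates 1 to 4 held 53.4, 35.1, 26.1 and 30.7 FPKM. The log2 difference was 0.50 ± 0.27 (SE, adjusted p = 0.366), and 0.58 (adjusted p = 0.274) without the 2 wounds that stood apart. STAB1 overlaps NT5DC2 on the opposite strand, and the strand setting of the read counting is not given in the sources used here. NT5DC2 averaged 48.9 and 52.8 FPKM in the diabetic and non-diabetic groups, a log2 difference of -0.13 (adjusted p = 0.737).

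Of the lipoprotein receptors SCARB1 and OLR1, SCARB1 was called. SCARB1 is the high-density lipoprotein receptor that takes up cholesteryl esters. Diabetic wounds ranged from 26.0 to 42.4 FPKM with a median of 35.9 FPKM, and non-diabetic replicates 1 to 4 held 23.5, 23.1, 22.6 and 18.6 FPKM. Diabetic wounds were all higher, with a log2 difference of 0.69 ± 0.14 (SE, adjusted p = 0.0183 in limma; exact permutation p = 0.00303). This was the least secure of the 4 calls. The adjusted p was 0.0525 without non-diabetic replicate 3, 0.0635 without non-diabetic replicate 4 and 0.0631 without the 2 wounds that stood apart, with log2 differences of 0.71, 0.62 and 0.73.

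OLR1, or LOX-1, is the lectin-like receptor for oxidised low-density lipoprotein. Diabetic wounds ranged from 1.60 to 3.25 FPKM with a median of 2.46 FPKM, and non-diabetic replicates 1 to 4 held 3.38, 4.66, 3.39 and 6.67 FPKM. The diabetic wounds were all lower, but the nearest wounds of the 2 groups differed by little. The exact permutation test gave p = 0.00606, while the log2 difference of -0.74 ± 0.22 (SE) did not pass limma after adjustment over all genes (adjusted p = 0.0972). With libraries weighted by their estimated precision it did, at -0.84 ± 0.23 (SE, adjusted p = 0.0392). Without the 2 wounds that stood apart it was -0.85 ± 0.26 (SE, adjusted p = 0.144).

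**Figure D2:**
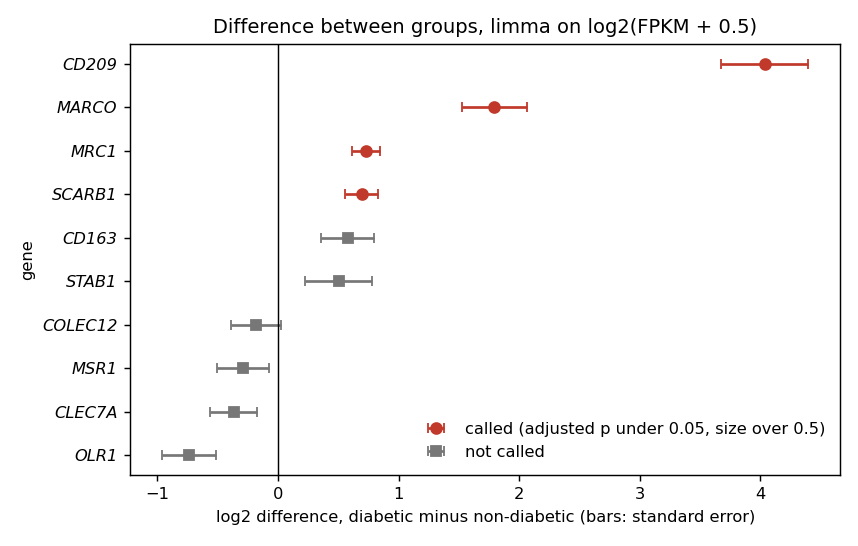
Log2 difference of each receptor, diabetic minus non-diabetic, from limma on log2(FPKM + 0.5), with bars of 1 standard error. CD209 (4.04) and MARCO (1.80) lie furthest to the right, MRC1 (0.73) and SCARB1 (0.69) complete the called receptors in red, and OLR1 (-0.74) is the lowest of those in grey.

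The promoters of the 4 receptors called higher are shown because these transcripts were called together. Each window runs from 250 bases before to 50 bases after the gene's start in the deposited coordinates, was read 5′ to 3′ from the RefSeq Sscrofa11.1 genome, and carries in capitals each GAGGAA or its reverse complement TTCCTC, the core letters recognised by PU.1, the ETS factor of myeloid cells. CD209 is at chr2:71394164-71394463, MARCO at chr15:24502685-24502984, MRC1 at chr10:44107676-44107975 and SCARB1 at chr14:28301171-28301470, all on the plus strand.
CD209: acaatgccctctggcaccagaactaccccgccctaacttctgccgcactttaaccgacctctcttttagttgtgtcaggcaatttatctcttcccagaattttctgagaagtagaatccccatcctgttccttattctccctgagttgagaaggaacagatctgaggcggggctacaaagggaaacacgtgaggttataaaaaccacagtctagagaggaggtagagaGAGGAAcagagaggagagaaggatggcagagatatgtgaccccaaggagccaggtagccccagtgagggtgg
MARCO: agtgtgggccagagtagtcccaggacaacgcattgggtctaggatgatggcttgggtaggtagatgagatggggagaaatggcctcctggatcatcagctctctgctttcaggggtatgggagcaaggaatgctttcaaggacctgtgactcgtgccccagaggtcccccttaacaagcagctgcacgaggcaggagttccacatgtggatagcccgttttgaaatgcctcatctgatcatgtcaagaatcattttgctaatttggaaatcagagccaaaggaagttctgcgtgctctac
MRC1: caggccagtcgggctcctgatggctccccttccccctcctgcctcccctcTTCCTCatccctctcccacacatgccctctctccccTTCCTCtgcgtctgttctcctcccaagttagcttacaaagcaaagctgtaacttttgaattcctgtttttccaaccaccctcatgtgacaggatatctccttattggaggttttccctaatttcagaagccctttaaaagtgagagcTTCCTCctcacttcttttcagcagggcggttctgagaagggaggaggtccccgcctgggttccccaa
SCARB1: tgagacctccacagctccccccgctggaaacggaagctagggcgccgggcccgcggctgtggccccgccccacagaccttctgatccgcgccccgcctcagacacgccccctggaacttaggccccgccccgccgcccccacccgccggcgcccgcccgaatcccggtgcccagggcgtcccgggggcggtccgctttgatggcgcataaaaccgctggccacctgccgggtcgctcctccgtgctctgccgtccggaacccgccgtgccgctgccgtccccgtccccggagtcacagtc
GAGGAA was present on either strand in 5 of the 10 receptor promoters, CD209, MSR1, COLEC12 and OLR1 with 1 match each and MRC1 with 3, against 26.1% of 20664 promoters of protein-coding genes of the same length. The match in CD209 began at position -22 and the matches in MRC1 at positions -200, -164 and -17, counted back from the gene's first base. TATAAA on the gene's strand was present in CD209, from position -55, and in MSR1, against 7.4% of promoters. AGGTCA, a motif of nuclear receptors, was found on neither strand of any of the 10 promoters, against 14.2% of promoters. None of the 3 motifs contains another. SCARB1 and COLEC12 had the promoters richest in G and C, at 75.0% and 76.7%, against 31.3% in CD163. The transcribed units differed as much, from the 8 exons and 824 exonic bases of CD209 to the 9536 exonic bases of STAB1.

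The order of the receptors by level was not the same in the 2 groups. In diabetic wounds the means ran from CD209 (93.2 FPKM) through CD163 (79.0), STAB1 (52.5), SCARB1 (36.1), COLEC12 (31.4), MRC1 (22.1), MSR1 (10.5), MARCO (3.77) and OLR1 (2.49) to CLEC7A (1.76 FPKM). In that order, MRC1 and MSR1, and MSR1 and MARCO, were the neighbours whose ranges over the wounds did not overlap. In non-diabetic wounds the order was CD163 (53.4 FPKM), STAB1 (36.3), COLEC12 (35.1), SCARB1 (21.9), MRC1 (13.0), MSR1 (12.9), CD209 (4.75), OLR1 (4.52), CLEC7A (2.43) and MARCO (0.659 FPKM). There the ranges of STAB1 and COLEC12, of MRC1 and MSR1, of CD209 and OLR1, of CD163 and STAB1 and of OLR1 and CLEC7A overlapped. CD209 made up 14.7% to 35.0% of the summed FPKM of the 10 receptors in diabetic wounds and 1.78% to 3.20% in non-diabetic wounds. COLEC12 made up 7.61% to 11.4% and 16.6% to 20.6%.

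The mean level of macrophage markers was itself higher in diabetic wounds. All 18 monocyte and macrophage markers found in the table passed the filter and none was at 0 throughout. Of these, 2 were called higher, the lipopolysaccharide co-receptor CD14 and the integrin ITGAM, against 1.35% of all genes tested. A positive log2 difference was found for 16, and the median was 0.37. FCGR1A went the other way, at 1.63 ± 0.787 FPKM (SD) in diabetic against 3.19 ± 0.569 FPKM (SD) in non-diabetic wounds (-0.86, adjusted p = 0.101). So did CD86 (-0.19, adjusted p = 0.621), and neither was called. Their summed level was 1971 to 3569 FPKM in the diabetic group and 1284 to 2511 FPKM in the other. CD14 was at 41.4 ± 9.98 FPKM (SD, n = 7) against 23.7 ± 3.40 FPKM (SD, n = 4), with a log2 difference of 0.76 (adjusted p = 0.039), and ITGAM at 3.72 ± 1.29 FPKM against 1.26 ± 0.109 FPKM, with a log2 difference of 1.22 (adjusted p = 0.00585). The call of CD14 was lost without any 1 of diabetic replicates 3 to 7 or any 1 non-diabetic wound (adjusted p of 0.0588 to 0.136). The most abundant marker, LYZ, had a log2 difference of 0.53 ± 1.14 (SE, adjusted p = 0.855) and was at 38.9 and 57.9 FPKM in the 2 wounds that stood apart. The mean log2 level of the 18 markers was 5.30 ± 0.18 (SD, n = 7) against 4.94 ± 0.22 (SD, n = 4), a difference of 0.36 (exact permutation p = 0.0212).

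Each receptor was then expressed relative to that mean in the same wound, which lowers each of the 10 differences by the same 0.36. The difference in CD209 was 3.68 on the log2 scale (exact permutation p = 0.00303) and in MARCO 1.44 (exact permutation p = 0.00303). CD209 lay at 0.062 to 1.72 relative to the marker mean in diabetic wounds and at -2.77 to -2.41 in non-diabetic wounds. MRC1 differed by 0.38 (exact permutation p = 0.0273), SCARB1 by 0.34 (exact permutation p = 0.0515), CD163 by 0.22 (p = 0.261) and STAB1 by 0.15 (p = 0.561, exact permutation tests). OLR1 was lower by this measure, at -1.09 (exact permutation p = 0.00303), as were CLEC7A at -0.72 and MSR1 at -0.64 (each exact permutation p = 0.00606) and COLEC12 at -0.54 (exact permutation p = 0.0242). These are 10 unadjusted comparisons that share 1 reference. Against C1QA, C1QB, C1QC, CSF1R and CD68 alone, the difference in MRC1 was 0.17 (exact permutation p = 0.488). Without the 2 wounds that stood apart, the differences were 3.51 for CD209, 1.35 for MARCO and -1.17 for OLR1.

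**Figure D3:**
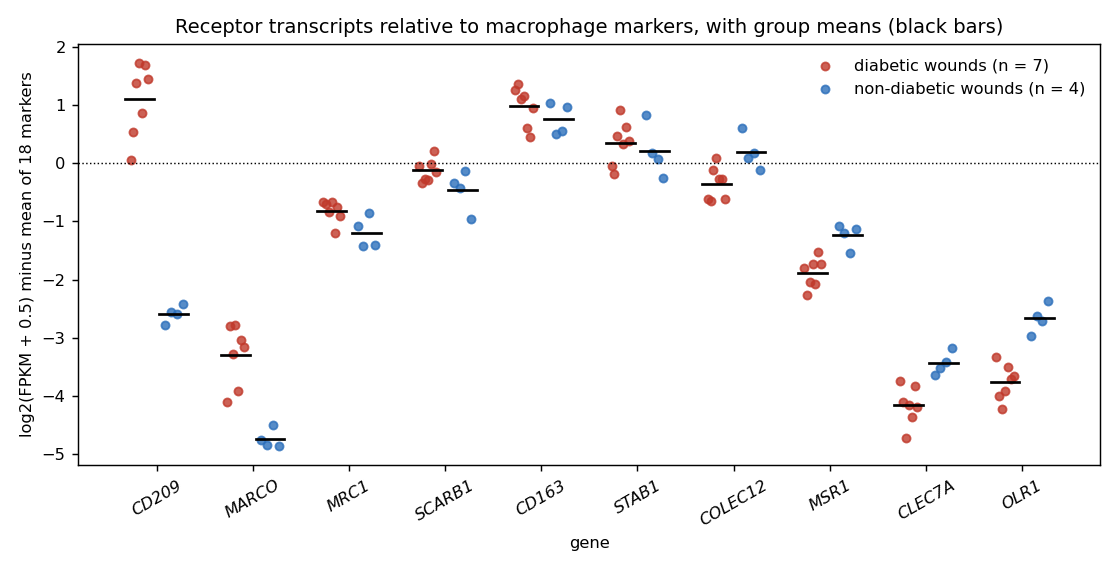
Log2(FPKM + 0.5) of each receptor minus the mean of 18 macrophage markers in the same wound, for 7 diabetic (red) and 4 non-diabetic wounds (blue), with black bars at group means. The group means of CD209 are 1.10 and -2.58, those of MARCO -3.29 and -4.73, and those of OLR1 -3.76 and -2.66.

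Markers of other cells that carry some of these receptors were read in the same fit, in which 1.35% of all genes tested were called higher and 1.66% lower. Of 10 tested dendritic cell markers none was called, with summed levels of 42.3 to 67.2 FPKM against 43.4 to 62.2 FPKM and with XCR1 and CD1E under the filter. The most abundant, SIRPA, had a log2 difference of -0.11 (adjusted p = 0.837). None of 10 blood endothelial markers was called (summed 270 to 341 and 260 to 327 FPKM; PECAM1, 0.021, adjusted p = 0.954), nor any of 6 lymphatic endothelial markers (summed 78.4 to 153 and 112 to 154 FPKM; CCL21, -0.34, adjusted p = 0.533). None of 7 neutrophil markers was called, S100A12 being the most abundant (-0.39, adjusted p = 0.927). Of 7 B and plasma cell markers, 3 were higher. CD79A, a chain of the B cell receptor complex, differed by 1.74 (adjusted p = 0.00103), its partner CD79B by 1.19 (adjusted p = 0.0256) and the plasma cell chaperone MZB1 by 1.99 (adjusted p = 0.0117). No non-diabetic wound reached 0.5 FPKM of CD79B, which passed the filter only through the diabetic group, and its call was lost without any 1 of diabetic replicates 3 and 5 and non-diabetic replicates 1 to 3 (adjusted p of 0.0546 to 0.0838). The call of MZB1 was lost without the 2 wounds that stood apart (adjusted p = 0.0588). MS4A1 and PAX5 were under the filter, and XBP1, the most abundant, differed by 0.068 (adjusted p = 0.794). None of 10 T and NK cell markers (NKG7, 0.45, adjusted p = 0.317) and none of 10 fibroblast markers (COL3A1, -0.26, adjusted p = 0.674) was called. KRT15 was the 1 keratinocyte marker of 9 called (2.50, adjusted p = 0.0388; KRT5, the most abundant, 0.25, adjusted p = 0.936), and the call was lost without any 1 of diabetic replicates 1, 2, 5, 6 and 7 and non-diabetic replicates 1, 2 and 4 (adjusted p of 0.057 to 0.114). LEP was the 1 adipocyte marker of 7 called, lower at -1.41 (adjusted p = 0.0126; ADIPOQ, -0.97, adjusted p = 0.371). No diabetic wound reached 0.5 FPKM of LEP, which passed the filter only through the non-diabetic group. The 1 skeletal muscle marker that passed the filter, DES, reached 181 FPKM in 1 diabetic wound against at most 10.4 FPKM in non-diabetic wounds, and its log2 difference was 0.56 (adjusted p = 0.771). In the lists with no limma call, the genes at an unadjusted limma p under 0.05, with no limit on size, were also counted. No dendritic cell, neutrophil or fibroblast marker was among them. The others were 1 blood endothelial marker (higher), 1 lymphatic endothelial marker (lower) and 2 T and NK cell markers (1 higher, 1 lower). The share of all genes under this looser rule is not reported here, so these counts have no background beside them. The part of these cells in the receptor differences was not tested.

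The receptors did not vary together as a block from wound to wound. After the group means were removed, STAB1 and COLEC12 had the closest pattern over the 11 wounds (Pearson r = 0.95, and 0.90 without the 2 wounds that stood apart). CLEC7A and OLR1, which lie 23219 bases apart on chromosome 5, followed (r = 0.81, and 0.81 without those wounds). CD209 varied with STAB1 (r = 0.73, and 0.89 without them) and with MARCO (r = 0.72 and 0.64), but hardly with CD163 (r = 0.084 and -0.029). CD163 and SCARB1 had the most opposed pattern (r = -0.46 and -0.57). These coefficients are descriptions, since wounds of a group share an animal and each pair shares its libraries and their scaling. Diabetic replicate 4 was the highest diabetic wound for 6 receptors, CD209, MARCO, CD163, MRC1, STAB1 and COLEC12. It exceeded the mean of the other diabetic wounds by 0.92 in CD209, 0.84 in STAB1 and 0.79 in MARCO on the log2 scale, and by 0.014 in SCARB1. Diabetic replicate 1 was the lowest for CD209 and MARCO, and diabetic replicate 2 for STAB1, COLEC12, MSR1, SCARB1 and OLR1.

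**Figure D4:**
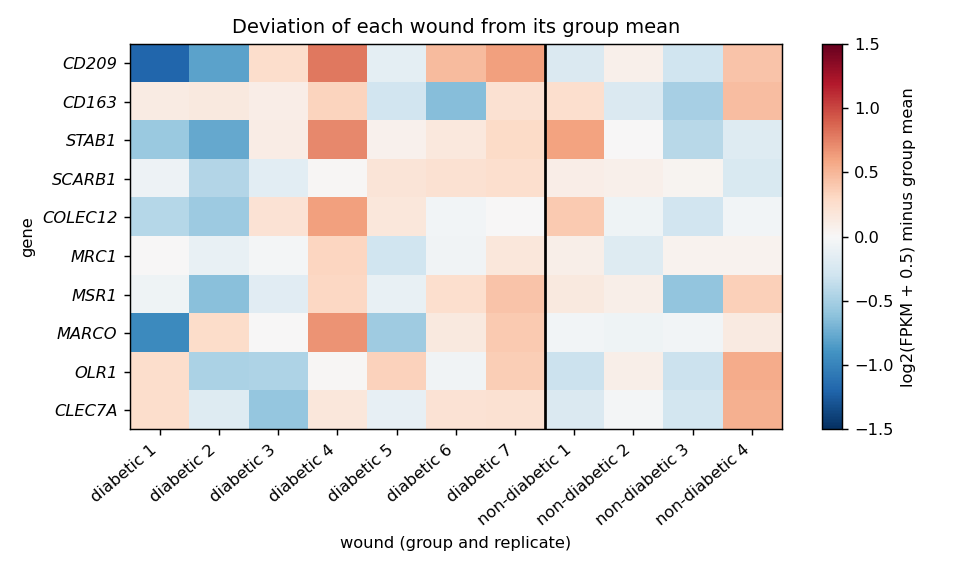
Deviation of log2(FPKM + 0.5) from the group mean for the 10 receptors (rows) in the 11 wounds (columns), with red above and blue below the mean and a line between the groups. Diabetic replicate 4 stands above its group mean for STAB1, COLEC12, CD209 and MARCO, and non-diabetic replicate 4 is the highest of its group for CLEC7A and OLR1.

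Over all 13956 genes, the protein-coding genes whose group-centred pattern came closest to each receptor were SLCO2B1 and HDAC3 for STAB1 (r = 0.99 each), TMEM250 (0.96) and PKN3 (0.94) for CD209, and SEPT4 (0.92) and PARP2 (0.89) for MARCO. For CD163 they were MERTK, a receptor for apoptotic cells (0.94), and ATP6V1C1 (0.92). For OLR1 they were TCIRG1 (0.89) and SYF2 (0.88), and for CLEC7A they were MDP1 (0.85) and SPP1, or osteopontin (0.85). They were PLLP (0.94) and FUNDC2 (0.92) for MSR1, ZNF672 and THPO (0.97 each) for COLEC12, PXDC1 and UBE2G2 (0.97 each) for SCARB1, and PDCD1 (0.88) and CT55 (0.85) for MRC1. These were picked as the largest coefficients over 11 wounds among all genes tested and are given with no test.

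Among 13 other scavenger receptors tested, 4 were called higher and none lower, and the median log2 difference was 0.12. Over all genes tested 1.35% were called higher and 1.66% lower. CD36, the class B receptor for fatty acids and oxidised lipoprotein, was at 15.4 ± 3.40 FPKM (SD, n = 7) against 7.21 ± 0.865 FPKM (SD, n = 4), with a log2 difference of 1.02 (adjusted p = 0.00523). CD5L, a secreted macrophage protein with scavenger receptor cysteine-rich domains, was at 1.62 ± 0.651 against 0.335 ± 0.133 FPKM (1.29, adjusted p = 0.0126). SCARA5, a ferritin receptor, was at 1.13 ± 0.465 against 0.291 ± 0.105 FPKM (1.00, adjusted p = 0.034), and SSC4D at 0.984 ± 0.173 against 0.456 ± 0.1003 FPKM (0.63, adjusted p = 0.0156). No non-diabetic wound reached 0.5 FPKM of SCARA5, which passed the filter only through the diabetic group. The non-diabetic median was also under 0.5 FPKM for CD5L (0.280) and SSC4D (0.427), with highest values of 0.531 and 0.597 FPKM. The count of 4 of 13 thus includes SCARA5, CD5L and SSC4D, which their level in diabetic wounds admitted. SCARA5 and SSC4D lost the call when single wounds were left out, while CD36 and CD5L kept it. Of 22 other settings, SCARA5 lost the call in 11, with adjusted p up to 0.183, and SSC4D in 5, with adjusted p up to 0.286. LRP1, the most abundant of the list and an endocytic receptor of many ligands, stood at 79.6 FPKM in both groups (log2 difference -0.036, adjusted p = 0.962).

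Of 27 other lectin-type receptors tested, 2 were called higher and none lower, with a median of 0.20. The shares over all genes tested were 1.35% higher and 1.66% lower. CLEC1A, an endothelial and myeloid receptor 2601 bases from CLEC7A, was at 8.97 ± 1.42 against 5.93 ± 0.698 FPKM (0.55, adjusted p = 0.0334), and CLEC3B, or tetranectin, a secreted plasminogen-binding lectin, at 64.4 ± 17.5 against 35.9 ± 5.80 FPKM (0.81, adjusted p = 0.0388). Both calls were lost without any 1 of several wounds, with adjusted p up to 0.0997 for CLEC1A and 0.135 for CLEC3B. LGALS1, the most abundant, differed by -0.22 (adjusted p = 0.59). Counted instead by the description in the annotation, 65 genes were named as a scavenger receptor or C-type lectin, and 32 passed the filter. None was called lower and 7 were called higher, namely MARCO, SCARB1, CD5L, SCARA5, SSC4D, CLEC1A and CLEC3B. Of these, CD5L, SCARA5 and SSC4D passed the filter through their level in diabetic wounds.

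The steps that follow these receptors showed few calls, as did all genes tested (1.35% higher and 1.66% lower). None of 14 genes of lectin receptor signalling was called, among them FCER1G, the adaptor chain (0.39, adjusted p = 0.305). None of 20 apoptotic cell uptake genes was called (CALR, -0.11, adjusted p = 0.578), nor any of 14 genes of haemoglobin and iron handling, the pathway that CD163 feeds (FTH1, the ferritin heavy chain, 0.21, adjusted p = 0.463). A looser rule, an unadjusted limma p under 0.05 with no limit on size, was also read. By it the 3 lists held 1, 5 and 0 genes that were higher and 0, 2 and 2 that were lower. The 5 included C1QA, C1QB and C1QC, which were also counted as macrophage markers. The share of all genes under this looser rule is not reported here, and a missed call does not show that levels were equal. Of 23 lipoprotein and cholesterol genes, LPL, the lipase that releases fatty acids from lipoproteins, was the 1 called. It was at 19.3 ± 3.52 FPKM (SD, n = 7) against 46.7 ± 11.98 FPKM (SD, n = 4), a log2 difference of -1.24 (adjusted p = 0.00229), and APOE, the most abundant of the list, differed by 0.49 (adjusted p = 0.343).

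Of 16 tested genes for cytokines, receptors and transcription factors that act on macrophage activation, 2 were called higher and none lower. Over all genes tested 1.35% were called higher and 1.66% lower. CSF2RA, the receptor chain for granulocyte-macrophage colony-stimulating factor, was at 11.3 ± 3.48 against 4.55 ± 0.928 FPKM (1.18, adjusted p = 0.0182), and lost the call without non-diabetic replicate 2 (adjusted p = 0.0597) or 3 (0.0638) and without the 2 wounds that stood apart (0.0588). IRF4, a transcription factor downstream of interleukin-4 in macrophages and also of plasma cells, was at 2.92 ± 0.870 against 0.889 ± 0.411 FPKM (1.32, adjusted p = 0.0125). The cytokines IL4, IL13 and CSF2, which would be upstream, were under the filter.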

How the data were processed

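Wounds were grouped by the diabetic or non-diabetic label of each library (7 and 4). Per the labels' processing notes, reads were trimmed with fastp and processed with HISAT2 2.2.1, StringTie 2.2.3 and featureCounts 2.0.6 on Sscrofa11.1. The authors deposited FPKM values. Their formula and annotation release are not given in the sources used here. Multiplied by gene length and divided by a step estimated for each library, 100.0% of values came out as whole reads (tolerance 0.05 reads). This gave the reads behind each value.

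The filter kept 13956 genes that reached 0.5 FPKM in 4 or more libraries. Their log2(FPKM + 0.5) values entered limma (eBayes with trend), with Benjamini-Hochberg adjustment, after the procedure had been tried on simulated data. Calls used an adjusted p under 0.05 and a log2 difference over 0.5. Single values used two-sided exact permutation tests. The members and lists were chosen with earlier results of these data known. The genes named were the members, the called and the most abundant genes of each list, and the 2 closest patterns per member. NT5DC2, CLEC9A, CLEC12A and the neighbours of CD209 were named for their position, with their values already seen. FCGR1A and CD86 were named for their direction, also with their values already seen. Other settings varied the pseudocount, filter, scaling, weights, trend, side covariate, replicate block, wounds and the macrophage reference. List counts include a few genes whose own values are not reported here. Stained sections were not used here. Fits ran in R 4.3.3 with limma 3.58.1. Permutation tests enumerated all splits in Python 3.11.15, and the procedure was checked against SciPy 1.17.1 on random numbers. Figures used matplotlib 3.10.9.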

Additional observations from a re-analysis of the deposited data

Results flagged for a closer look

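In 52 groups of 4 or 7 wounds, 1 wound lay far from the others by Dixon's criterion in 5, and chance gives about 1 in 20. MARCO was at 0.775 FPKM in non-diabetic replicate 4, against 0.606 to 0.628 FPKM in the other 3 non-diabetic wounds, still below the lowest diabetic wound. MRC1 was at 11.3 FPKM in non-diabetic replicate 2, against 13.4 to 13.8 FPKM. CD79A was at 1.31 FPKM in non-diabetic replicate 2, against 0.764 to 0.832 FPKM. KRT15 was at 9.97 FPKM in non-diabetic replicate 3, against 0.679 to 1.81 FPKM, and LPL at 64.7 FPKM in the same wound, against 40.2 to 41.7 FPKM.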

How the results depend on the processing

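Of 230 member values under other settings, 222 kept their direction and their side of the thresholds, 6 lost the call, 2 gained it and none changed direction. CD209 was called under every alternative run, with log2 differences of 3.80 to 4.23. Main counts were 188 genes higher and 231 lower. They became 406 and 416 with library weights, under which OLR1 was the 1 receptor called lower and STAB1 was called higher (0.71, adjusted p = 0.0456), and 112 and 100 without the 2 wounds that stood apart. Leaving out single wounds gave 110 to 236 higher and 99 to 246 lower, the lowest counts without non-diabetic replicate 1 or 3 (110 higher each, 99 and 110 lower), with lower calls at 145 and 152 without diabetic replicates 3 and 5 and at 142 and 129 without non-diabetic replicates 2 and 4, and 3 or 4 receptors called higher. The same replicate number gave correlations of deviations of -0.27, 0.22, 0.068 and -0.48 for replicates 1 to 4, so the numbers do not pair the wounds. With the replicate block the counts fell to 11 and 5, and CD209 was the 1 receptor called (adjusted p of MARCO 0.156, MRC1 0.173 and SCARB1 0.459). Diabetic replicates 5 to 7 have no non-diabetic wound of the same number. In the blocked fit the group difference therefore rested on the 4 same-numbered pairs. Relative to macrophage markers, an exact permutation test over 4 same-numbered pairs cannot go below p = 0.125. MRC1 relative to the markers lost its p under 0.05 without any 1 of diabetic replicates 1, 2 and 4 and non-diabetic replicates 2 and 4 (differences of 0.30 to 0.49 over all wounds left out), COLEC12 without non-diabetic replicate 1 (-0.40, exact permutation p = 0.075), and SCARB1 passed it under 4 settings.

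Values near 0 changed sign. LRP1 was at 0.20 with library weights, 0.044 without the 2 wounds that stood apart and -0.15 to 0.13 with single wounds left out. SIRPA was at 0.059 with library weights and -0.23 to 0.0071 with single wounds left out. PECAM1 was at -0.099 with quantile normalization, -0.068 with library weights and -0.057 to 0.11 with single wounds left out, and XBP1 at -0.029 with quantile normalization. With single wounds left out LYZ ran from -0.53 to 1.24, S100A12 from -1.65 to 0.66, KRT5 from -0.38 to 1.08, DES from -0.099 to 0.71 and STAB1 relative to the markers from -0.0032 to 0.35, the last also -0.062 against C1QA, C1QB, C1QC, CSF1R and CD68. The causes were not tested. No setting moved the median of all genes by over 0.1. Depth limits the low transcripts most, MARCO in non-diabetic wounds with 28 to 47 reads and OLR1 and CLEC7A with 94 to 403 reads per wound, and 2 animals limit all of it.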

Other observations

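Within 100 kb of CD209 on chromosome 2, the 5 neighbours that passed the filter besides SNAPC2 had log2 differences of 0.037 to 0.11 (adjusted p of 0.546 to 0.903). EVI5L, the nearest tested, stood at 8.17 and 7.69 FPKM in diabetic and non-diabetic wounds, and SNAPC2 at 4.83 and 3.49 FPKM (0.41, adjusted p = 0.0512). CLEC4G and FCER2, C-type lectin genes beside CD209, were at 0.113 FPKM or less in both groups. In the lectin cluster on chromosome 5, CLEC1A was called higher (0.55) and CLEC9A differed by 0.17 (adjusted p = 0.711). OLR1 and CLEC12A had every diabetic wound below every non-diabetic wound without a call (-0.74 and -0.49, adjusted p = 0.0972 and 0.109). Of all genes tested, 2.96% were separated in that direction. The mean of CLEC12A was 0.760 FPKM for the non-diabetic group, above the filter's 0.5 FPKM, and 0.406 FPKM for the diabetic group, below it. Its level in non-diabetic wounds therefore counted towards passing the filter.

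By annotated domain, 4 of 9 tested genes with a scavenger receptor cysteine-rich domain were called higher, MARCO, SCARA5, CD5L and SSC4D. Over all genes tested 1.35% were called higher and 1.66% lower. SCARA5, CD5L and SSC4D passed the filter through their level in diabetic wounds, so the count of 4 of 9 partly follows from the filter. The median log2 difference of 0.61 was the value of an unnamed gene at 0.649 against 0.239 FPKM, admitted in the same way. Of 31 tested genes with a C-type lectin domain 3 were called higher, CD209, MRC1 and CLEC3B, and of 37 with collagen triple helix repeats 2 were called higher and 2 lower.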
